A study of Mus musculus with 26 samples.

Results

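The 10 genes described here encode receptors through which leukocytes sense chemokines and other chemoattractants, namely Cxcr4, Cxcr2, Ccr1, Ccr2, Ccr3, Cx3cr1, C3ar1, C5ar1, Fpr1 and Cmklr1. They were chosen by symbol, and all 10 were matched to 1 Ensembl identifier each among the 52636 genes of every library. Their reads and levels were examined in granulocyte-macrophage progenitors (GMPs), common myeloid progenitors (CMPs) and bone marrow-derived mast cells (BMMCs) from wild-type and Prss57-/- mice. Prss57 encodes neutrophil serine protease 4 (NSP4), and Prss57-/- mice (labelled NSP4.KO) carry a germline deletion of exon 2 of this gene and were compared with wild-type littermates. GMPs and CMPs were sorted from the bone marrow of female mice, with 4 libraries for each cell type and genotype. BMMCs (labelled BMMC.P3) came from male mice, were grown from sorted GMPs with interleukin-3 and stem cell factor, and had 5 libraries for each genotype. Age and strain background of the animals are not given in the labels. The study calls the libraries of a genotype biological replicates, but the labels do not tie them to single animals or cultures, and p-values here measure the spread between these libraries.

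Chemoattractant receptors are cell surface proteins that cross the membrane 7 times and couple to Gi proteins. A bound ligand releases G protein subunits that activate phospholipase C and phosphoinositide 3-kinase, and kinases, arrestins and RGS proteins end the signal. In the bone marrow, CXCR4 holds progenitors near stromal cells that make CXCL12, and CXCR2 draws mature neutrophils out. CC receptors, complement receptors and formyl peptide receptors guide myeloid cells and mast cell precursors into tissues.

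The receptors fell into 3 patterns of difference between cell types. Cxcr4 was by far the highest receptor in progenitors and was lower in BMMCs. Ccr1, C3ar1, C5ar1, Fpr1 and Cmklr1 were higher in BMMCs than in progenitors. Of these, Ccr1 and Cmklr1 were also called higher in GMPs than in CMPs of both genotypes in every fit that left out 1 library. C3ar1 was called in both genotypes but lost its call in some of those fits, and C5ar1 was called in Prss57-/- mice but missed the threshold in wild-type mice. Ccr2, Cx3cr1, Cxcr2 and Ccr3 differed less between cell types. No receptor passed the test between genotypes in any cell type.

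Depth was 35501671 to 51497962 reads on genes in GMP libraries, 32078404 to 53264762 in CMP libraries and 18627626 to 28647216 in BMMC libraries. Levels are normalized RPKM, the reads on a gene divided by its length and by a size factor of the library. Prss57 was at 123 to 198 normalized RPKM in wild-type GMPs and at 0.0400 to 0.178 in Prss57-/- GMPs. It was at 17.0 to 32.0 in wild-type CMPs, and each Prss57-/- CMP library held 1 read. Wild-type BMMC libraries held only 2 to 27 Prss57 reads and Prss57-/- BMMC libraries 0, so the deleted gene itself was close to the floor of 3 reads in BMMCs of both genotypes. All 8 markers of GMPs, such as the granule proteases Elane and Prtn3, were called higher in wild-type GMPs than in CMPs. In Prss57-/- mice 7 of the 8 were called higher. Among the 8, Fcgr3 encodes CD16, and GMPs were sorted as high and CMPs as low for CD16/CD32, so it is not independent of the sort. The mast cell markers summed to 25826 to 47599 normalized RPKM in all BMMC libraries but 1. That library, Prss57-/- BMMC library 3, and Prss57-/- CMP library 2 stood apart from their groups, and the genotype differences in BMMCs and CMPs are given with and without them, as are the calls in GMPs over CMPs of Prss57-/- mice. In Prss57-/- CMP library 2 the normalized RPKM of all genes summed to 785333, against 336085 to 480995 in the other libraries of its group.

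To show the sequence next to the receptors that differed between progenitors, the 250 bases before the RefSeq start site are printed for Ccr1, Cmklr1, C3ar1 and C5ar1, from 5′ to 3′ on the strand of the gene. Each of these genes lies on the reverse strand of GRCm38.p6. The windows are chr9:123968693-123968942 for Ccr1, chr5:113643604-113643853 for Cmklr1, chr6:122856158-122856407 for C3ar1 and chr7:16259339-16259588 for C5ar1. The window of Cmklr1 lies inside the GENCODE gene, and those of C5ar1 and C3ar1 lie partly inside theirs. Capitals mark the letters GAGGAA, which are bound by the myeloid factor PU.1, or AGATAA, which are bound by GATA factors, or their reverse complements TTCCTC and TTATCT.
Ccr1: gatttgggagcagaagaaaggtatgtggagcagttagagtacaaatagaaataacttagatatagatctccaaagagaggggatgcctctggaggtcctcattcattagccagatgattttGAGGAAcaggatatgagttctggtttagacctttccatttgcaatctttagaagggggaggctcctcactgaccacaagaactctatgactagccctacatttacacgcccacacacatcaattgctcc
Cmklr1: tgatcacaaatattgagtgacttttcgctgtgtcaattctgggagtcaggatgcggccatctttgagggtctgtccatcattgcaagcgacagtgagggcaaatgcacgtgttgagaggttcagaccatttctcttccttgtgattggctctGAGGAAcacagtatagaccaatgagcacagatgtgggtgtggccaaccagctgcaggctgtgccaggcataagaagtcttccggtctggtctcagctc
C3ar1: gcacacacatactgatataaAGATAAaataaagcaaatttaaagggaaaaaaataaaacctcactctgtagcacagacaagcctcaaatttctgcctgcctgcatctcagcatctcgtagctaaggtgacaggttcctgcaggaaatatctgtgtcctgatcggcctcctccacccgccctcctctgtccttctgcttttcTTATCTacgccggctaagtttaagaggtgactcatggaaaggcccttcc
C5ar1: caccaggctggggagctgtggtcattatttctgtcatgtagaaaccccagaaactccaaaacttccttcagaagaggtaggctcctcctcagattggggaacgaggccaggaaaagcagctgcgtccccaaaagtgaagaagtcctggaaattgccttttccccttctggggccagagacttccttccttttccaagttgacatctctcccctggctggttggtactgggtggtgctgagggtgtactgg
Of all 32851 RefSeq windows of this length, 23.3% held the PU.1 letters and 9.99% the GATA letters on either strand. The PU.1 letters began at base -129 for Ccr1 and at base -98 for Cmklr1, counted back from the start site. GATA letters began at bases -230 and -49 for C3ar1, and the window of C5ar1 held neither. Among the other receptors, Ccr3 held both, Cxcr2 the PU.1 letters and Ccr2 the GATA letters, whereas Cx3cr1, Cxcr4 and Fpr1 held neither. A match is a description of these letters, and no binding was measured.

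Ccr1, Ccr3 and Ccr2 belong to a cluster of CC receptor genes on chromosome 9. In GRCm38, Ccr1 (ENSMUSG00000025804) extends from 123962124 to 123968692, Ccr3 (ENSMUSG00000035448) from 124021972 to 124031689 and Ccr2 (ENSMUSG00000049103) from 124101950 to 124113557. From the start of Ccr1 to the end of Ccr2 the cluster spans 151 kb. Mean levels of these neighbours differed widely. In wild-type GMPs, Ccr2 was at 16.0 ± 1.85 normalized RPKM, Ccr1 at 8.09 ± 2.32 and Ccr3 at 0.152 ± 0.0728 (SD, n = 4 each). In wild-type BMMCs, Ccr1 was at 178 ± 27.0, Ccr2 at 26.5 ± 5.57 and Ccr3 at 0.504 ± 0.178 (SD, n = 5 each). Genes of this cluster resemble each other in sequence, and reads that align to more than 1 place were not counted by the authors, so the levels of these neighbours are uncertain.

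The other receptors are spread over 6 chromosomes. Cxcr2 (ENSMUSG00000026180) and Cxcr4 (ENSMUSG00000045382) lie on chromosome 1, from 74153989 to 74161246 and from 128588199 to 128592293. Cx3cr1 (ENSMUSG00000052336) lies on chromosome 9 from 119901616 to 120069879, a span that overlaps 9 other annotated genes, of which only the antisense gene Gm33858 shares exon bases with it, 78 in all. Cmklr1 (ENSMUSG00000042190) is on chromosome 5, C3ar1 (ENSMUSG00000040552) on chromosome 6, C5ar1 (ENSMUSG00000049130) on chromosome 7 and Fpr1 (ENSMUSG00000045551) on chromosome 17. The counting is not stated to use strand, so reads of a gene and its antisense partner cannot be told apart.

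**Figure D1:**
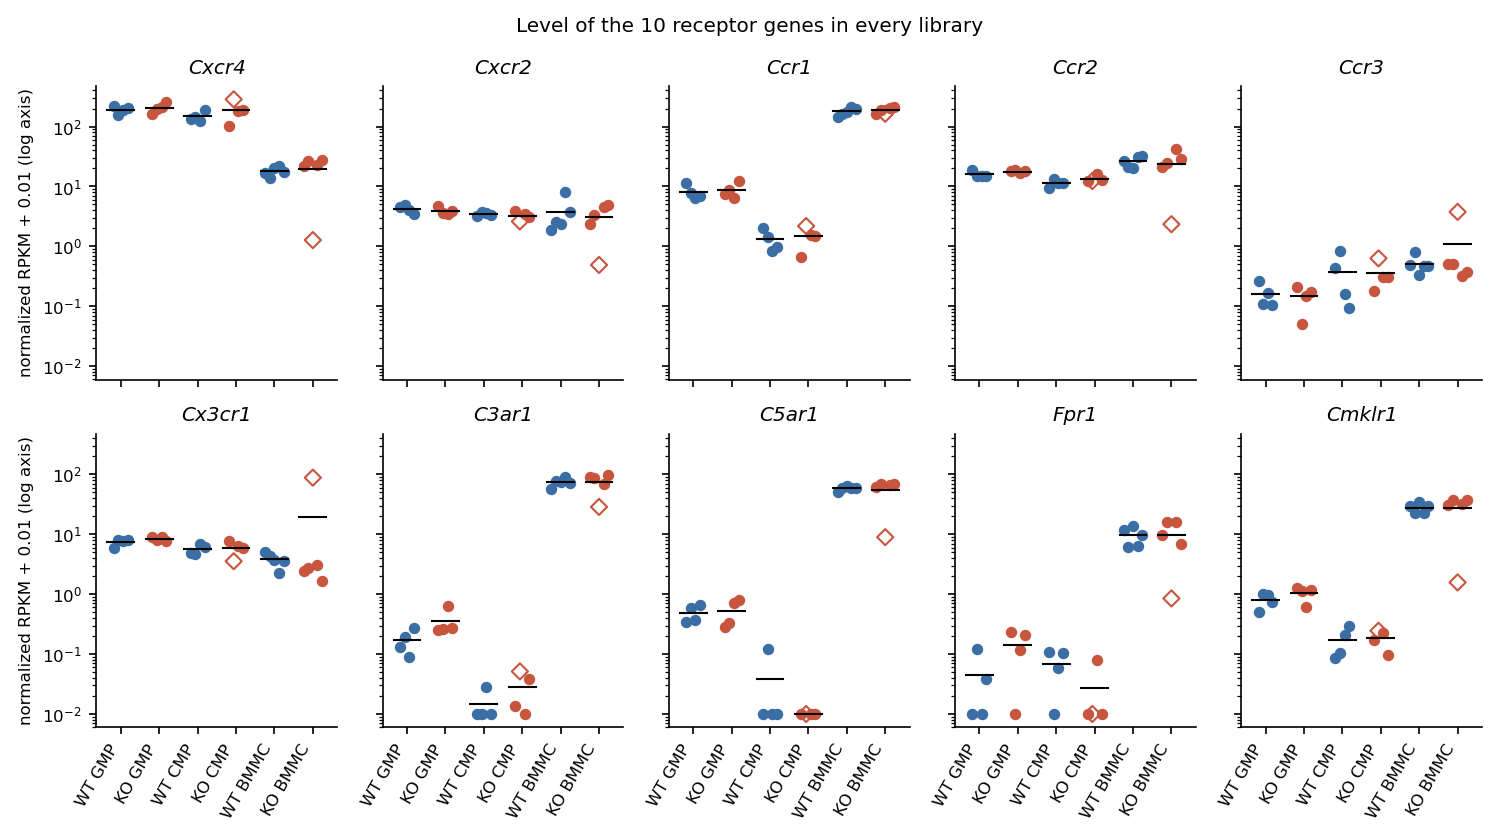
Level of each receptor in all 26 libraries, as normalized RPKM plus 0.01 on a log axis. Blue points are wild-type (WT) and red points Prss57-/- (KO) libraries, bars are group means, and open diamonds mark Prss57-/- CMP library 2 and Prss57-/- BMMC library 3. Cxcr4 lies above 100 in every progenitor library, and Ccr1, C3ar1, C5ar1, Cmklr1 and Fpr1 lie higher in every BMMC library than in any progenitor library.

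Cxcr4, the receptor for CXCL12, made up most of the receptor signal of progenitors. Its level was 217, 155, 191 and 203 normalized RPKM in the 4 wild-type GMP libraries and 164, 200, 213 and 252 in the 4 Prss57-/- GMP libraries. In CMPs it was 131, 146, 125 and 191 in wild-type libraries and 103, 285, 183 and 188 in Prss57-/- libraries, where the highest value belonged to library 2, which stood apart. GMPs and CMPs overlapped. Cxcr4 held 79.9% to 93.0% of the summed level of the 10 receptors in every GMP and CMP library. Between wild-type GMPs and CMPs the log2 fold change was 0.39 ± 0.15 (standard error, n = 4 each, adjusted p = 0.0713, edgeR quasi-likelihood test), which was not a call.

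Cxcr2, the receptor for the neutrophil chemokines CXCL1 and CXCL2, was low and even in progenitors. It ranged from 3.43 to 4.90 normalized RPKM in GMPs and from 2.59 to 3.94 in CMPs of both genotypes. Its level in wild-type BMMCs ranged from 1.84 to 8.07, with the highest value in library 4. Cxcr2 passed no test between cell types or genotypes.

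To compare receptor expression between progenitor stages, GMPs were tested against CMPs within each genotype, so that both tests used separate libraries from the same sequencing run and from mice of the same sex. A gene was called where the adjusted p was below 0.01 and the change was 2-fold or more. Of the 9 receptors tested, 3 were called higher in wild-type GMPs and none lower, against 6.28% of all 14967 genes called higher and 6.53% called lower. In Prss57-/- mice, 4 of the 9 receptors tested were called higher and none lower, against 4.04% and 4.38% of 14959 genes. The median log2 fold change of the tested receptors was 0.50 in wild-type and 0.55 in Prss57-/- mice, beside -0.02 and -0.03 over all genes tested. Without Prss57-/- CMP library 2 the median of the receptors in Prss57-/- mice was 0.42, and the same 4 receptors were called, with log2 fold changes of 2.85 for Ccr1, 2.76 for Cmklr1 and 5.26 for C3ar1, while the CMP libraries left held 0 reads of C5ar1. Fpr1 had too few reads to be tested.

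Ccr1, a receptor for CCL3 and CCL5, rose from CMPs to GMPs in both genotypes. Wild-type CMP libraries were at 2.03, 1.40, 0.836 and 0.979 normalized RPKM and wild-type GMP libraries at 11.5, 7.66, 6.40 and 6.84. Prss57-/- CMP libraries were at 0.654, 2.17, 1.54 and 1.50 and Prss57-/- GMP libraries at 7.57, 8.76, 6.31 and 12.1. Every GMP library lay above every CMP library. The log2 fold change was 2.65 ± 0.29, or 6.27-fold, in wild-type mice (adjusted p = 7.9e-05, edgeR) and 2.63 ± 0.36, or 6.18-fold, in Prss57-/- mice (adjusted p = 0.0010, edgeR). In these bulk libraries, more cells of a type that carries Ccr1 and more Ccr1 RNA per cell cannot be told apart.

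Cmklr1, the receptor for the chemoattractant chemerin, was lower than Ccr1 in every progenitor library and was also called higher in GMPs of both genotypes. It was at 0.0744, 0.0945, 0.197 and 0.281 normalized RPKM in wild-type CMPs and at 0.501, 1.01, 0.945 and 0.731 in wild-type GMPs. Prss57-/- CMP libraries were at 0.159, 0.235, 0.212 and 0.0853 and Prss57-/- GMP libraries at 1.28, 1.13, 0.596 and 1.14. GMPs and CMPs did not overlap in either genotype. The log2 fold change was 2.32 ± 0.44 in wild-type mice (adjusted p = 0.0024, edgeR) and 2.63 ± 0.38 in Prss57-/- mice (adjusted p = 0.0015, edgeR).

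The receptors for the complement fragments C3a and C5a were almost absent from CMPs. C3ar1 had 0, 0, 5 and 0 reads in the wild-type CMP libraries and 25, 47, 17 and 60 reads in the wild-type GMP libraries. It had 1, 5, 0 and 5 reads in Prss57-/- CMPs and 63, 58, 135 and 44 in Prss57-/- GMPs. Every GMP library thus held more C3ar1 reads than any CMP library. The ratio of pooled CPM (reads on the gene relative to the library total) was 26.1 in wild-type mice and 26.5 in Prss57-/- mice, with 95% exact intervals of 11.0 to 81.7 and of 14.6 to 53.6 that cover counting error only. The call held in wild-type mice (adjusted p = 0.0025, edgeR), but not without GMP library 4 (adjusted p = 0.0103). The call in Prss57-/- mice (adjusted p = 0.0065) was lost without any 1 of the 4 GMP libraries or without CMP library 3 or 4, with adjusted p between 0.0127 and 0.0272.

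C5ar1 had 0, 15, 0 and 0 reads in wild-type CMPs and 41, 91, 47 and 89 in wild-type GMPs. All 4 Prss57-/- CMP libraries held 0 reads, and the Prss57-/- GMP libraries held 42, 44, 91 and 77. Reads in GMPs exceeded those in CMPs in every library, and all CMP reads came from wild-type library 2. The ratio of pooled CPM was 15.7 in wild-type mice (95% exact interval 9.33 to 28.4), with an adjusted p of 0.0108 (edgeR) that missed the threshold. Without wild-type CMP library 2 it passed (adjusted p = 0.00040), as it did without wild-type GMP library 1. Against the floor of 3 reads in each CMP library, C5ar1 was at least 20.5-fold higher in Prss57-/- GMPs (adjusted p = 0.0016, edgeR).

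Among the remaining receptors, Ccr2, the CCL2 receptor of monocytes, was slightly higher in GMPs. It ranged from 14.9 to 18.8 normalized RPKM in wild-type GMPs and from 9.40 to 13.4 in wild-type CMPs, which did not overlap. The log2 fold change of 0.50 ± 0.13 missed both limits of a call (adjusted p = 0.0129, edgeR). Cx3cr1, the fractalkine receptor, ranged from 5.95 to 8.09 in wild-type GMPs and from 4.70 to 6.85 in wild-type CMPs, with a log2 fold change of 0.42 ± 0.16 (adjusted p = 0.0654). Ccr3, the eotaxin receptor of eosinophils, had the opposite sign, at -1.27 ± 0.66 in wild-type mice and -1.28 ± 0.55 in Prss57-/- mice (-0.89 without CMP library 2), with 11 to 139 reads in CMP libraries and 7 to 40 in GMP libraries, and passed neither test. Fpr1, the receptor for formyl peptides, held 0 to 18 reads in GMP libraries and 0 to 6 in CMP libraries. An exact permutation test of its CPM (two-sided, smallest possible p = 0.0286) gave p = 0.486 in wild-type and p = 0.143 in Prss57-/- mice.

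**Figure D2:**
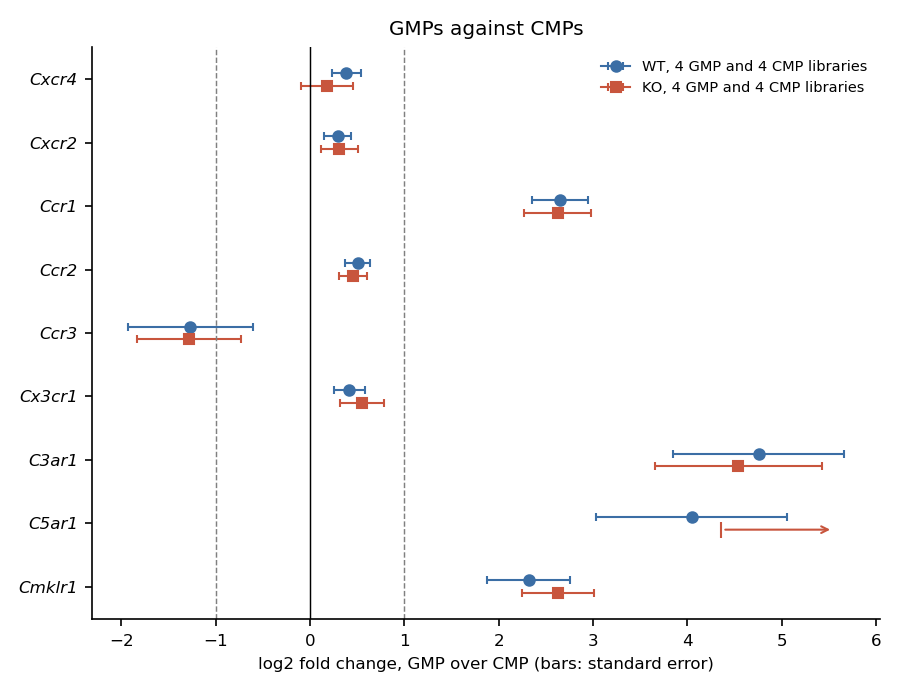
Log2 fold change of GMPs over CMPs for the 9 receptors tested, in wild-type (blue circles) and Prss57-/- mice (red squares), with bars for the standard error and dashed lines at the 2-fold limit. The arrow for C5ar1 starts at the lower bound of 20.5-fold, since all Prss57-/- CMP libraries held 0 reads. Ccr1, C3ar1, Cmklr1 and C5ar1 lie above the upper limit in both genotypes, C5ar1 without a call in wild-type mice. Ccr3 lies below the lower limit in both genotypes, without a call.

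Whether genotype altered the step from CMP to GMP was tested as an interaction over all 16 progenitor libraries. None of the receptors was called, as was the case for 0% of all 15900 genes tested, with 169 genes at an unadjusted p under 0.05. The value furthest from 0 was that of C5ar1, at 5.04 ± 2.11 on the log2 scale (adjusted p = 1.00, edgeR), which rests on the 15 reads of wild-type CMP library 2. For Ccr1 the interaction was -0.03 ± 0.46 and for Cmklr1 0.29 ± 0.58.

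The genes next to the receptors in the pathway were counted in the same tests. Of the 34 other chemoattractant receptors, 20 were tested in wild-type GMPs against CMPs, of which 4 were called higher and 4 lower. Of all genes tested, 6.28% were called higher and 6.53% lower. Ltb4r1, a receptor for leukotriene B4, was at 78.5 ± 9.53 normalized RPKM in GMPs and 10.1 ± 2.45 in CMPs (log2 fold change 2.98 ± 0.18). The histamine receptor Hrh4 was at 0.794 ± 0.276 in GMPs, with at most 1 read in any wild-type CMP library. Ackr1, which binds chemokines without signalling, was called lower in GMPs at -4.68 ± 0.74, as were Cxcr1 (-4.64 ± 0.86) and the lymph node homing receptor Ccr7 (-2.04 ± 0.48).

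Ligand and signalling genes were counted against the same background of 6.28% of all genes called higher and 6.53% called lower. Of 11 ligand genes tested, 4 were called higher in wild-type GMPs and none lower. They were complement C3 (50.3 ± 8.54 against 2.28 ± 0.995 normalized RPKM), the source of the C3AR1 ligand, annexin A1 (Anxa1, 196 ± 44.1 against 51.3 ± 10.1), whose peptides act on formyl peptide receptors, Ccl24, a ligand of CCR3, and Ccl6. Of 27 signalling genes, 4 were called higher, among them Rac2 (log2 fold change 1.06 ± 0.10), Plcb2 (1.70 ± 0.18) and Pik3r5 (1.70 ± 0.32), which encode a small GTPase, a phospholipase and a regulator of phosphoinositide 3-kinase. Another 3 were called lower, all of them regulators of G protein signalling, Rgs1 (-2.60 ± 0.43), Rgs18 (-1.50 ± 0.25) and Rgs10 (-1.20 ± 0.19).

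Markers of mature lineages also differed between progenitors. The study sorted GMPs and CMPs as cells that were positive for CD117 and CD34 and negative for SCA-1 and for lineage antigens, among them CD11b and Gr-1 of mature myeloid cells and Ter119 of erythroid cells, a gate meant to remove mature cells. Within this gate, GMPs were taken as high and CMPs as low for CD16/CD32. In wild-type GMPs against CMPs, 5 of 7 eosinophil markers, 3 of 4 basophil markers, 8 of 10 neutrophil markers, 5 of 7 mast cell markers and 5 of 10 monocyte and macrophage markers tested were called higher, and none of these lists had a gene called lower. Of all genes tested, 6.28% were called higher and 6.53% lower. The summed monocyte and macrophage markers ranged from 1439 to 1840 normalized RPKM in wild-type GMPs and from 462 to 629 in wild-type CMPs. Basophil markers summed to 1756 to 2158 in wild-type GMPs and to 28.3 to 59.1 in wild-type CMPs. All 10 erythroid and megakaryocyte markers were called lower in GMPs, whereas 2 of 6 dendritic cell markers were called lower and none higher. The part of these cell types in the receptor levels was not tested.

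BMMCs were set beside progenitors in wild-type mice to describe the receptors of cultured mast cells. Cell type, sex, sequencing run and culture differ together between these libraries and cannot be told apart. Against GMPs, 6 of the 10 receptors were called higher and 2 lower, beside 27.3% and 24.4% of 14754 genes. Against CMPs, 6 were called higher and 1 lower, beside 29.6% and 27.9% of 15007 genes. The median log2 fold change of the receptors was 3.00 against GMPs and 4.06 against CMPs, while that of all genes was -0.00 and -0.01.

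Ccr1 led the receptors in every BMMC library, with 39.9% to 54.6% of their summed level. It was at 143, 163, 177, 211 and 198 normalized RPKM in wild-type BMMCs and at 160, 188, 163, 206 and 216 in Prss57-/- BMMCs. Each of these libraries was above all progenitor libraries, of which the highest was at 12.1. Ccr1 was 20.6-fold higher in wild-type BMMCs than in wild-type GMPs (log2 fold change 4.37 ± 0.21) and 128-fold higher than in CMPs (7.00 ± 0.28).

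C3ar1 was at 56.6, 76.3, 73.8, 90.4 and 72.4 normalized RPKM in wild-type BMMCs, and C5ar1 at 51.6, 59.4, 64.3, 60.2 and 60.2. In wild-type GMPs no library exceeded 0.260 for C3ar1 or 0.646 for C5ar1, so the groups were far apart. The log2 fold change over GMPs was 8.73 ± 0.30 for C3ar1 and 6.83 ± 0.20 for C5ar1. Against the few reads in wild-type CMPs, the ratio of pooled CPM was 9728 for C3ar1 (95% exact interval 4168 to 29962) and 1552 for C5ar1 (941 to 2774).

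Cmklr1 was at 29.3, 22.6, 35.0, 22.4 and 29.6 normalized RPKM in wild-type BMMCs, a log2 fold change of 5.03 ± 0.23 over GMPs. Fpr1, which held at most 9 reads in any wild-type GMP library, was at 11.9, 6.05, 13.98, 6.29 and 9.80 in wild-type BMMCs. Its ratio of pooled CPM was 205 over GMPs (95% exact interval 114 to 411) and 132 over CMPs (79.6 to 236). Ccr3 was called higher than in GMPs (1.63 ± 0.37), but its level was 0.319 to 0.800 normalized RPKM in wild-type BMMCs and overlapped that of wild-type CMPs. Ccr2 was called higher than in CMPs (1.12 ± 0.16) and was under the fold limit against GMPs (0.63 ± 0.15).

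Cxcr4 was the receptor with the lowest fold change in BMMCs. It was at 17.1, 14.1, 20.0, 21.8 and 17.4 normalized RPKM in wild-type BMMCs, below every progenitor library. Cxcr4 was 11.3-fold lower than in wild-type GMPs (log2 fold change -3.50 ± 0.14) and 8.75-fold lower than in CMPs (-3.13 ± 0.16). Cx3cr1 was at 5.11, 4.32, 3.72, 2.21 and 3.60 in wild-type BMMCs, all below wild-type GMPs. Its log2 fold change of -1.07 ± 0.20 was a call against GMPs but fell short of the fold limit without wild-type BMMC library 4 (-0.91), and it was -0.66 ± 0.20 against CMPs, under that limit.

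Ligand genes were higher in BMMCs as well. Of 18 tested against wild-type GMPs, 16 were called higher and none lower, beside 27.3% of all genes called higher and 24.4% called lower. The same background holds for the other counts in this paragraph. Ccl2, the ligand of CCR2, was at 317 ± 82.8 normalized RPKM in wild-type BMMCs and at most 7 reads in a wild-type GMP library, and Ccl7 was at 65.7 ± 20.6. The CXCR2 ligand genes Cxcl2 and Cxcl3 were at 39.5 ± 11.0 and 131 ± 53.4, with 0 reads in all wild-type GMP libraries. Of 19 other chemoattractant receptors tested, 15 were called higher and 2 lower, among them the other C5a receptor, C5ar2 (12.6 ± 0.946 against 0.161 ± 0.0371 normalized RPKM), and the sphingosine-1-phosphate receptor S1pr3, which was lower (0.226 ± 0.108 against 8.83 ± 1.96). Of 27 signalling genes, 10 were called higher and 1 lower, with Rgs1 at 119 ± 40.8 against 0.248 ± 0.137.

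Markers of other myeloid cells were present in BMMC libraries next to those of mast cells. Of 10 mast cell markers, 9 were called higher in wild-type BMMCs than in GMPs, beside 27.3% of all genes called higher and 24.4% lower. So were 8 of 11 monocyte and macrophage markers, with 3 lower, and 6 of 7 dendritic cell markers, with 1 lower. Those called lower included Ly86 (log2 fold change -6.17 ± 0.20) and Ly6c2 (-4.81 ± 0.34), and the dendritic cell marker Flt3 (-5.49 ± 0.20). The monocyte and macrophage markers summed to 10020 to 15043 normalized RPKM in wild-type BMMCs, most of it the lysozyme gene Lyz2 (12352 ± 2019), and the dendritic cell markers to 829 to 1498, most of it Cd74 (778 ± 193). Csf1r, Adgre1 and Mrc1 were at medians of 151, 102 and 117 over the 9 BMMC libraries other than Prss57-/- library 3. In the same libraries Ly6c2 had a median of 37.9 and Ly86 of 1.66. The study reports by flow cytometry that nearly all cells of its GMP-derived cultures carried c-KIT and FcεR1α once differentiated. The part of other myeloid cells in the receptor levels of BMMCs was not tested.

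Whether loss of NSP4 altered receptor expression was tested within each cell type. None of the 9 receptors tested in GMPs was called, where 0.00681% of 14689 genes were, which was 1 gene, with 119 genes at an unadjusted p under 0.05. In CMPs none of 7 was called, where 0.00670% of 14916 genes were, with 76 genes at an unadjusted p under 0.05. In BMMCs none of 10 was called, as for 0% of 13938 genes by edgeR, DESeq2 and limma voom alike, with 332 genes at an unadjusted p under 0.05 by edgeR. The median log2 fold change of Prss57-/- over wild-type was 0.12 for the receptors in GMPs, 0.08 in CMPs and 0.02 in BMMCs, beside 0.00, 0.03 and 0.01 for all genes. The median of the receptors was -0.01 in CMPs without Prss57-/- library 2. In BMMCs it was 0.15 without Prss57-/- library 3 and -0.30 with limma voom.

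Among the 9 receptors tested in GMPs, the largest genotype difference was that of C3ar1. Its level was 0.123, 0.180, 0.0779 and 0.260 normalized RPKM in wild-type and 0.243, 0.255, 0.633 and 0.265 in Prss57-/- libraries. The genotypes overlapped, and Prss57-/- library 3 was the highest. The log2 fold change was 1.12 ± 0.45 (adjusted p = 1.00, edgeR), and over the libraries left out in turn it ranged from 0.66 to 1.46. Cmklr1 differed by 0.38 ± 0.29 and Ccr2 by 0.15 ± 0.10. Ccr1, Cxcr4, Cx3cr1 and C5ar1 had values from 0.10 to 0.17, and Cxcr2 and Ccr3 were at -0.09 ± 0.15 and -0.15 ± 0.52.

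In CMPs the value furthest from 0 was 0.33 ± 0.28, for Cxcr4. It was 0.08 without Prss57-/- library 2, in which Cxcr4 was at 285 normalized RPKM against 103 to 188 in the other 3. Ccr1, Ccr2, Cx3cr1 and Cmklr1 were between 0.05 and 0.20, with standard errors of 0.17 to 0.54, and Cxcr2 and Ccr3 were at -0.10 ± 0.19 and -0.13 ± 0.68. Without that library Ccr1 was at -0.11, Ccr2 at 0.24, Cx3cr1 at 0.23, Cmklr1 at -0.08, Cxcr2 at -0.01 and Ccr3 at -0.54, and none was a call. C3ar1, C5ar1 and Fpr1 had too few reads to be tested in CMPs, and Fpr1 in GMPs. For these, the exact two-sided permutation test of the CPM gave p = 0.257 for Fpr1 in GMPs, p = 0.257 for C3ar1 and Fpr1 in CMPs and p = 1 for C5ar1 in CMPs.

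**Figure D3:**
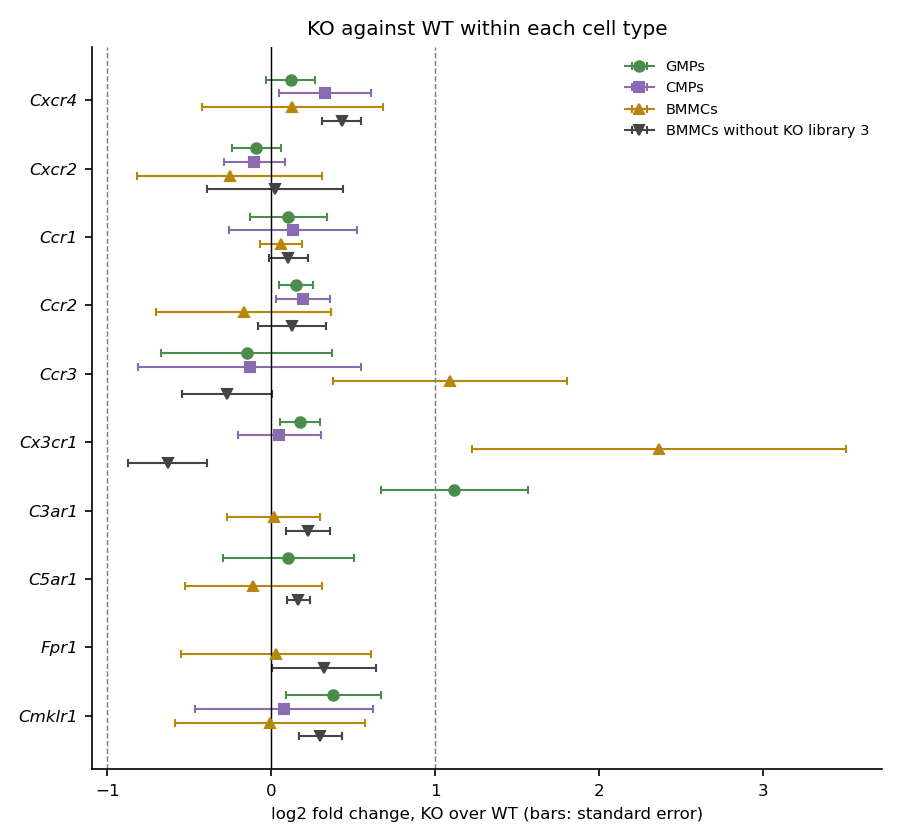
Log2 fold change of Prss57-/- over wild-type for each receptor tested, in GMPs (green circles), CMPs (purple squares) and BMMCs with (gold triangles) and without (dark grey triangles) Prss57-/- library 3. Bars are standard errors and dashed lines the 2-fold limit, and Cx3cr1 moves from 2.36 to -0.63 in BMMCs once that library is left out.

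In BMMCs the genotype values depended on Prss57-/- library 3. For Cx3cr1, the other 4 Prss57-/- libraries were at 2.47, 2.70, 3.04 and 1.63 normalized RPKM and library 3 was at 88.1, from 6790 reads against 176 to 485 in the other 9 BMMC libraries. The log2 fold change was 2.36 ± 1.14 with it (adjusted p = 1.00, edgeR) and -0.63 ± 0.24 without it (adjusted p = 0.63). Ccr3 likewise went from 1.09 ± 0.72 to -0.27 ± 0.28, with library 3 at 3.75 normalized RPKM and the other Prss57-/- libraries at 0.305 to 0.506.

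Cxcr4 was at 21.8, 26.2, 1.26, 22.4 and 27.3 normalized RPKM in Prss57-/- BMMCs, and all but library 3 lay at or above the highest wild-type value of 21.8. Its log2 fold change was 0.13 ± 0.55 over all libraries and 0.43 ± 0.12 without library 3 (adjusted p = 0.52, edgeR). Without that library 0% of 14162 genes were called, with 1031 at an unadjusted p under 0.05. With library 3, Cmklr1 was at -0.01 ± 0.58, C3ar1 at 0.02 ± 0.28, C5ar1 at -0.11 ± 0.42, Ccr2 at -0.17 ± 0.53, Cxcr2 at -0.25 ± 0.57 and Fpr1 at 0.03 ± 0.58. Without it, Cmklr1 was at 0.30 ± 0.13, C3ar1 at 0.22 ± 0.13, C5ar1 at 0.17 ± 0.07, Ccr2 at 0.13 ± 0.21, Cxcr2 at 0.02 ± 0.42 and Fpr1 at 0.32 ± 0.32. None of these was a call. Ccr1 was at 0.06 ± 0.13 with library 3 and at 0.10 ± 0.12 without it.

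Of the 10 receptors, 7 were lower in Prss57-/- BMMC library 3 than in any of the other 9 BMMC libraries. Cmklr1 was at 1.56 normalized RPKM against a median of 31.0 in the others, Cxcr4 at 1.26 against 21.8, Ccr2 at 2.33 against 26.9 and Fpr1 at 0.839 against 9.80. C5ar1 was at 8.94 against 60.7, Cxcr2 at 0.479 against 3.32 and C3ar1 at 28.6 against 76.3. Ccr1, at 163, was the only receptor within the range of the others, which was 143 to 216, while Cx3cr1 and Ccr3 were above it. Cx3cr1 was 29.0-fold over the median of the others and Ccr3 8.02-fold. As this is 1 library, the difference has no replicate check. The share of all genes outside the range of the other libraries was not counted. The counts for this library, here and below, are thus not read as particular to these genes.

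Markers of other cell types moved in the same library. All 11 monocyte and macrophage markers were below their range in the other 9 libraries, and their sum was 1065 normalized RPKM against 10020 to 19713. All 5 dendritic cell markers with a level of at least 1 normalized RPKM were below it too, with a sum of 71.5 against 829 to 1792. Of markers at such a level, 5 of 8 neutrophil markers were below their range and 0 above it. For basophil markers, 3 of 4 were below and 1 above. Of 7 erythroid and megakaryocyte markers, 4 were above their range and 2 below it. The 3 highest monocyte and macrophage markers in the library were Lyz2 (978), Cd68 (37.2) and Adgre1 (14.4), so none of these was at 0. Of 10 mast cell markers, 7 were above their range and 2 below it, with a sum of 76168 against 25826 to 47599. The highest in level were Cpa3 (29822), Tpsb2 (21821), which was within its range, and Cma1 (14490). Those below their range were Tpsab1, at 13.3 against a median of 715 in the other 9 libraries, and Hdc, at 88.6 against 139. The part of these cells in the receptor levels of the library was not tested. In this library Ccr1, C3ar1 and C5ar1 were above every GMP library, which reached 12.1, 0.633 and 0.776. Cmklr1, Fpr1, Cx3cr1 and Ccr3 were above every GMP library too. Cxcr4 (1.26 normalized RPKM), Ccr2 (2.33) and Cxcr2 (0.479) were below every GMP library.

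Other chemoattractant receptors and ligands were split in this library. Of 20 other receptors with a level of at least 1, 10 were below the range of the other BMMC libraries and 9 above it. The platelet-activating factor receptor Ptafr (3.45 against a median of 34.0) was low. Hrh4 (31.7 against 5.47), the leukotriene receptor Ltb4r2 (15.5 against 3.50) and C5ar2 (26.3 against 12.1) were high. Of 18 ligands, 12 were below the range and 2 above it, of which Ccl2 was at 1172 against a median of 322. These genes were named after their values were seen.

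**Figure D4:**
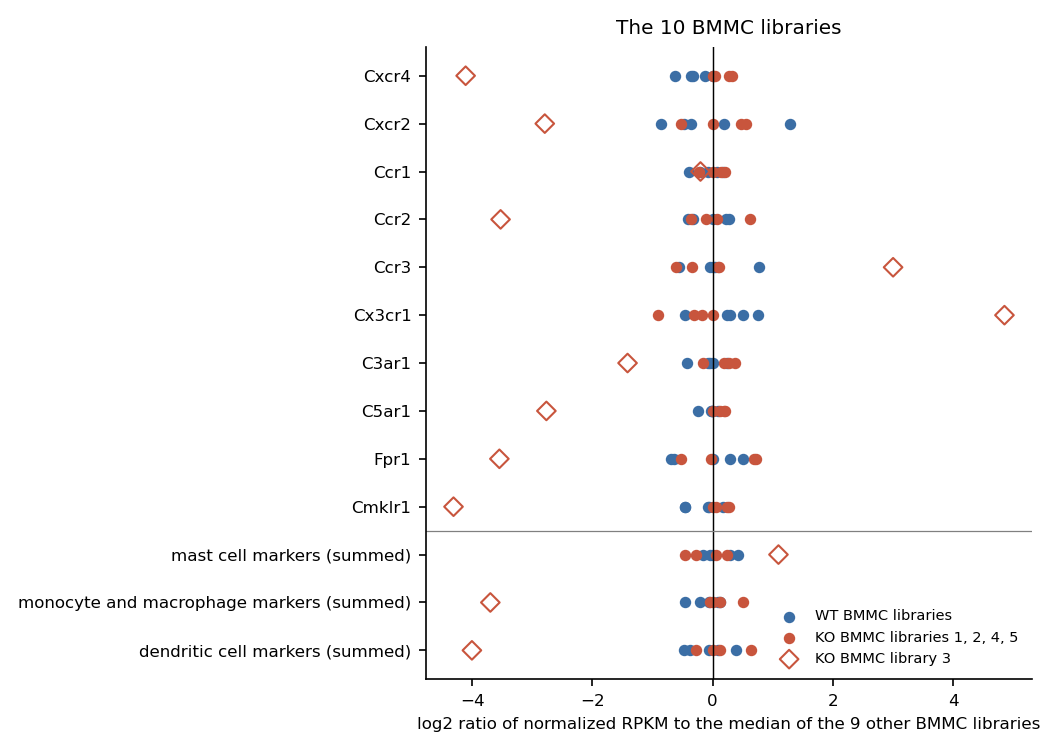
Log2 ratio of each BMMC library to the median of the 9 libraries other than Prss57-/- library 3, for the normalized RPKM of each receptor and for the summed levels of 3 marker lists. Blue points are wild-type and red points Prss57-/- libraries, and open diamonds are Prss57-/- library 3, which lies below all others for 7 receptors and for the macrophage and dendritic cell markers and above all others for Cx3cr1, Ccr3 and the mast cell markers.

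The genes most like each receptor were found by the root mean square difference of log2 CPM, each gene centred on its own mean, over the 26 libraries and 13198 genes. Ccr2 was closest to Ticam2 (0.24), Cxcr2 to the histone deiminase gene Padi4 (0.30) and Cxcr4 to BC064078 (0.37) and Haao (0.39). Ccr1 was closest to Slc6a12 (0.49) and St6gal1 (0.51), and Cmklr1 to Fam20c (0.45) and the endotoxin co-receptor gene Cd14 (0.57). Cx3cr1 was closest to Pdzd4 (0.51), Ccr3 to Ifitm1 (0.67) and Fpr1 to Rgmb (0.80). C3ar1 and C5ar1 were at 1.13 from each other, second for C3ar1 to Sytl2 (1.06) and for C5ar1 to Cd200r3 (0.99). The receptors' own spread over the libraries ranged from 0.73 for Cxcr2 to 5.22 for C3ar1 (SD of log2 CPM), so a small difference is easier to reach for the even ones.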

How the data were processed

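RNA was sequenced by the authors from 26 libraries (TruSeq Stranded Total RNA, single-end reads) and aligned to GRCm38 with GSNAP in HTSeqGenie. Uniquely aligned reads within exons were counted per gene, and the authors deposited these raw counts without normalization. They also deposited normalized RPKM, which divides each count by the length of the gene and a size factor of the library. The gene models used for counting are not given in the sources used here. Symbols and positions were taken from GENCODE M21, which matched 52403 of 52636 genes, and promoters from RefSeq.

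Groups were tested on the counts in R 4.3.3 with edgeR 4.0.16 (TMM, filterByExpr, robust glmQLFit and glmQLFTest), and p-values were adjusted over every gene tested by the Benjamini-Hochberg method. The authors used voom and limma. Calls needed an adjusted p under 0.01 and at least a 2-fold change. Receptors left out by the filter were compared by an exact permutation test of CPM. The floor was 3 reads per library, and floors and intervals cover counting error only. Alternatives were DESeq2 1.42.0, limma 3.58.1 with voom, RLE size factors, no filter, an adjusted p under 0.05 with no fold limit, a replicate block and each library left out in turn. The tests were tested on simulated counts. All 10 receptors were described, with at most 6 called genes of each other list per comparison, those of largest fold change, the 2 genes most like each receptor and the 3 highest markers in a library that stood apart. The receptors, lists and tests were chosen with earlier results of these data known. Some results are not reported here.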

Additional observations from a re-analysis of the deposited data

Results flagged for a closer look

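A library far from the others of its group was found in 12 of the 59 groups of receptor levels tested by Dixon's criterion, which chance alone meets in about 1 in 20 groups. The groups are not independent, so their number is not read against that share. Of the 12, 5 belonged to Prss57-/- BMMC library 3. There Cx3cr1 was the highest at 88.1 normalized RPKM and Ccr3 the highest at 3.75, while Cxcr4 was the lowest at 1.26, Cmklr1 at 1.56 and C5ar1 at 8.94.

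Wild-type GMP library 1 was the highest for Ccr2 at 18.8 normalized RPKM and the lowest for Cx3cr1 at 5.95. In Prss57-/- CMPs, library 3 was the highest for Ccr2 at 15.9. C3ar1 was the highest in Prss57-/- GMP library 3 at 0.633. The other 3 are groups in which all libraries but 1 held 0 reads, which meets the criterion by construction, namely 5 reads of C3ar1 in wild-type CMP library 3 (0.0183 normalized RPKM), 15 reads of C5ar1 in wild-type CMP library 2 (0.114) and 6 reads of Fpr1 in Prss57-/- CMP library 3 (0.0692).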

How the results depend on the processing

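Across 1061 alternative fits of 73 receptor results, 956 kept the direction and the side of the threshold. Of the 22 called results none changed sign, and 3 lost their call in some fit, namely C3ar1 in GMPs over CMPs of each genotype and Cx3cr1 in BMMCs over GMPs. An adjusted p under 0.05 with no limit on the fold gave 5 receptors called in wild-type GMPs over CMPs in place of 3, and C5ar1 gained its call there with limma voom (5.71), with no filter (4.08), under the replicate block (4.88), without wild-type GMP library 1 (4.19) and without wild-type CMP library 2 (9.02). The cause was not tested. With libraries left out in turn, 2 to 4 receptors were called in wild-type GMPs over CMPs, 3 to 4 in Prss57-/- mice and 7 to 8 in BMMCs over GMPs, and 0 between genotypes. Low reads limit C3ar1, C5ar1 and Fpr1 in progenitors.

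The main tests left libraries unpaired, as the lowest correlation of same-numbered libraries was below 0.1 in every comparison. That rule needs every pair to pass, so it cannot tell whether some samples were paired. The mean correlation of same-numbered and of other libraries was 0.18 and -0.08 for wild-type GMPs against CMPs. It was 0.25 and -0.09 for Prss57-/- GMPs against CMPs, and 0.23 and -0.09 between genotypes in CMPs. In the remaining comparisons the same-numbered mean was between -0.07 and 0.04. With the replicate block, 4 receptors were called in wild-type GMPs over CMPs and 3 in Prss57-/- mice, where C3ar1 lost its call (4.58, adjusted p = 0.0150, edgeR), with 8 in BMMCs over GMPs, 7 in BMMCs over CMPs and 0 between genotypes. Signs that turned under the block were those of Ccr3 between genotypes in CMPs (0.21), of Cxcr4 (-0.14), C3ar1 (-0.079) and Fpr1 (-0.21) in BMMCs, and of Cxcr2 in BMMCs over CMPs (-0.26).

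With limma voom, signs turned between genotypes for C5ar1 in GMPs (-0.077), Ccr3 in CMPs (0.13) and Cxcr4 (-0.29), C3ar1 (-0.11) and Fpr1 (-0.32) in BMMCs, for Cxcr2 in BMMCs over CMPs (-0.19) and for Ccr1 (0.051) and C3ar1 (0.043) in the interaction. With no filter they turned for Cxcr2 in BMMCs over CMPs (-0.0020) and for Ccr1 (0.017) and Ccr3 (0.024) in the interaction, and Cxcr2 turned there with RLE size factors (-0.0014) and DESeq2 (-0.0047). None of these values was a call, and the cause was not tested. Leaving out each library turned the sign of further uncalled log2 fold changes. The ranges between genotypes in GMPs were -0.10 to 0.32 for Ccr1, -0.40 to 0.21 for Ccr3 and -0.15 to 0.33 for C5ar1. The ranges between genotypes in CMPs were -0.11 to 0.41 for Ccr1, -0.54 to 0.62 for Ccr3, -0.13 to 0.23 for Cx3cr1 and -0.16 to 0.45 for Cmklr1. The ranges between genotypes in BMMCs were -0.0058 to 0.13 for Ccr1, -0.47 to 0.13 for Ccr2, -0.27 to 1.34 for Ccr3, -0.63 to 2.67 for Cx3cr1, -0.47 to 0.24 for Cxcr2, -0.013 to 0.43 for Cxcr4, -0.13 to 0.30 for Cmklr1, -0.10 to 0.22 for C3ar1, -0.21 to 0.17 for C5ar1 and -0.23 to 0.32 for Fpr1. The range for GMPs over CMPs in Prss57-/- mice was -0.015 to 0.42 for Cxcr4. The range for BMMCs over CMPs was -0.47 to 0.19 for Cxcr2. The ranges for the interaction were -0.31 to 0.20 for Ccr1, -0.12 to 0.055 for Ccr2, -0.76 to 0.38 for Ccr3, -0.069 to 0.30 for Cx3cr1, -0.10 to 0.13 for Cxcr2, -0.40 to 0.025 for Cxcr4, -0.074 to 0.53 for Cmklr1 and -3.60 to 0.46 for C3ar1.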
